A study of Mus musculus with 2 samples.

Results

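The receptors for 4 alarmins, cytokines that stressed or damaged barrier tissue releases, were followed in innate lymphoid cells (ILCs) of newborn and juvenile mouse skin. The 7 genes are Il1rl1, Il18r1, Il17rb and Crlf2, which encode the chains that bind IL-33, IL-18, IL-25 and TSLP, and Il18rap, Il1rap and Il17ra, which encode partner chains. They were chosen by name, for what they encode, out of 18786 genes in the deposited table, and all 7 were in it.

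Alarmin receptors are built from a chain that gives ligand specificity and a partner chain that completes the signalling complex. ST2, encoded by Il1rl1, binds IL-33 and pairs with IL1RAP. The IL-18 receptor pairs IL18R1 with IL18RAP, the IL-25 receptor pairs IL17RB with IL17RA, and CRLF2 pairs with the IL-7 receptor chain encoded by Il7r to bind TSLP. The IL-33 and IL-18 receptors signal through MyD88 and IRAK kinases to NF-kB, the IL-25 receptor through the adaptor Act1 (gene Traf3ip2), and the TSLP receptor through JAK kinases and STAT5. In ILC2s, the type 2 members of the ILC family, these signals are known to induce IL-5, which drives eosinophils, and IL-13, which acts on epithelium and fibroblasts.

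ILCs were sorted as CD45+, lineage-negative, Thy1.2+ cells from collagenase-digested skin of mice of the C57/BL6 strain, aged 14 days (group P14) and 1 day (group P1) after birth, with 1 library per day on the 10x Genomics 5' kit. The labels give no number of mice, pooling or sex. Cell names carry a suffix, 2 or 1, that could not be tied to a day, so the cells were treated as 1 pooled sample split into cell set 2 and cell set 1, and the days were not compared. Without replicates no test was run, and every interval below is a 95% interval of counting error only.

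With mitochondrial UMIs (unique molecular identifiers, 1 per captured RNA molecule) at 10% or less and called doublets removed, 3508 cells of set 2 and 1434 cells of set 1 were used, with medians of 4849 and 10667 UMIs per cell. Because set 1 had more UMIs per cell, shares of cells with a UMI were also taken after thinning each cell to 4106 UMIs, which left 2336 cells of set 2 and 1371 of set 1. Of the cell barcodes, 4 occurred in both sets. The gate genes Ptprc (CD45) and Thy1 stood at 672 and 493 CPM (UMIs per 1000000 of the set) in set 2 and at 376 and 211 CPM in set 1, and the ILC2 marker list of 11 genes summed to 5836 and 5065 CPM with no marker at 0. The 7 alpha beta T cell markers in the table summed to 938 CPM in set 2, against 783 CPM in set 1, most of it from the receptor constant genes Trbc1 (401 and 255 CPM) and Trbc2 (432 and 437 CPM), while Trac was at 19.5 and 10.6 CPM and Cd3e at 5.94 and 7.45 CPM. Cd3g, a further CD3 chain, was at 533 and 457 CPM.

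In the mouse genome (GRCm38), 3 of the 7 genes lie in a row on the plus strand of chromosome 1. Il1rl1 spans chr1:40429570-40465415, Il18r1 begins 136 bases after its end and spans chr1:40465552-40500854, and Il18rap follows after 14507 bases at chr1:40515362-40551705. The related genes Il1r2, Il1r1 and Il1rl2 lie just upstream, and the 6 genes together cover 477627 bases. Il17rb is on the minus strand at chr14:29996135-30008896, Crlf2 on the minus strand at chr5:109554709-109558993, Il1rap on the plus strand at chr16:26581704-26730117 and Il17ra on the plus strand at chr6:120463247-120487559.

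RefSeq's promoter windows (GRCm38.p6, 250 bases before to 50 after a start site) matched 6 of the 7 genes. The windows below are shown because Il1rl1 and Il18rap were found in the same cells, while Il17rb was found mostly in other cells. Capitals mark AGATAA or TGATAA (the motif that GATA factors bind), TGANTCA (AP-1) and TGTGGT (RUNX), searched on both strands, and no match overlaps another. Among 32851 windows of the same length, 18.6% hold the GATA motif, 7.81% the AP-1 motif and 16.8% the RUNX motif.
Il1rl1 upstream start, chr1:40429320-40429619, plus strand: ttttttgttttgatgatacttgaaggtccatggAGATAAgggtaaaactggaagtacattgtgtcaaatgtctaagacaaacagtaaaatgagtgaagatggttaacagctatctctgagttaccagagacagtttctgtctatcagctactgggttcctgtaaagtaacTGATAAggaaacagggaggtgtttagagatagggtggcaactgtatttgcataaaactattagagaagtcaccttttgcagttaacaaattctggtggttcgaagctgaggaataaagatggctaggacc
Il1rl1 downstream start, chr1:40439379-40439678, plus strand: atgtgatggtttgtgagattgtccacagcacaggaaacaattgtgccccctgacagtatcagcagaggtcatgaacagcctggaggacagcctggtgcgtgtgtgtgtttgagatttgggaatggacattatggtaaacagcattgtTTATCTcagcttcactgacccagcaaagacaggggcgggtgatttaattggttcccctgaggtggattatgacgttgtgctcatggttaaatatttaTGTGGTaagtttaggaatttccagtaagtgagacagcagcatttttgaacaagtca
Il18rap, chr1:40515112-40515411, plus strand: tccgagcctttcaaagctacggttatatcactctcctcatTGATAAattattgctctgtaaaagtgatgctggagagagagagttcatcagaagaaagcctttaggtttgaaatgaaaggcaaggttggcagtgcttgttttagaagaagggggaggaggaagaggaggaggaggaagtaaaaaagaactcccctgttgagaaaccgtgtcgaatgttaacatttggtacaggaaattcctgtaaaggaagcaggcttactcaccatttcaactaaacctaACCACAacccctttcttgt
Il17rb, chr14:30008847-30009146, minus strand: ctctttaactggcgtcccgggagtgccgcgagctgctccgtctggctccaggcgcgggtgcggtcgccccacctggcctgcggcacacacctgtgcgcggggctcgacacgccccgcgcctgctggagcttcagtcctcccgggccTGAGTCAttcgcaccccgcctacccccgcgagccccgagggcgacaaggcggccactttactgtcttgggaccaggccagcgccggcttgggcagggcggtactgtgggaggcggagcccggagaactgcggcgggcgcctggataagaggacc
The upstream Il1rl1 window has GATA matches at 217 and 80 bases before the start, and the downstream one has a GATA match 103 bases before the start on the minus strand and a RUNX match. In the mouse, Il1rl1 transcripts from the upstream start are known from mast cells and lymphocytes and those from the downstream start from fibroblasts. The counts are per gene and separate neither the 2 starts nor the membrane-bound form of ST2 from the soluble form that traps IL-33. The Il18rap window has a GATA match 210 bases before the start and a RUNX match, and the Il17rb window has an AP-1 match 104 bases before the start. The chromosome 1 windows shown held 1, 3 and 4 CpG pairs, against 32 in the Il17rb window, 31 in that of Crlf2 and 33 in that of Il1rap. These matches are descriptions of letters and were not tested for binding.

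Il17rb, the chain specific for IL-25, differed most between the cell sets. It held 1148 UMIs in set 2, or 63.7 CPM (60.1 to 67.5), and 275 UMIs in set 1, or 16.8 CPM (14.9 to 18.9), a level 3.79-fold higher in set 2 (3.32 to 4.34). It was found in 25.2% of set 2 cells and 15.9% of set 1 cells, and after thinning in 20.9% (488 cells) and 7.22% (99 cells). No other member differed by 2-fold or more. Over all 9483 genes with at least 100 UMIs, 6.24% were at least 2-fold higher in set 2 and 8.85% at least 2-fold lower, and nothing particular to the receptors is read from a single member of 7 past that fold. All 7 members had at least 100 UMIs. Of them 6 were higher in set 2, against 39.1% of all genes, and the median log2 ratio of the 7 was 0.50, against -0.15 over all genes. Counted among the 6 are Il1rl1 (0.89 to 1.21) and Il17ra (0.90 to 1.13), whose ratio intervals include 1.

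Il18r1, the IL-18-binding chain, stood at 195 CPM (189 to 202) in set 2, against 120 CPM (115 to 126) in set 1, a ratio of 1.62. Crlf2, the TSLP-binding chain, stood at 87.5 CPM (83.2 to 91.9) in set 2, against 61.8 CPM (58.0 to 65.7) in set 1, a ratio of 1.42. Both were more widespread in set 2 only at equal depth. Thinned cells had an Il18r1 UMI in 44.3% of set 2 and 34.3% of set 1, and a Crlf2 UMI in 29.1% and 21.9%, whereas with all UMIs the shares were 48.0% and 59.0% for Il18r1 and 33.2% and 45.7% for Crlf2. Malat1, a nuclear RNA, was also higher in set 2, at 22531 CPM against 11157 CPM in set 1, and its part in these ratios was not tested.

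Il1rl1, the IL-33-binding chain ST2, had nearly the same level in both sets, 20.1 CPM (18.1 to 22.3) in set 2, against 19.4 CPM (17.3 to 21.7) in set 1, with a ratio of 1.04 (0.89 to 1.21). Its RNA was in few cells. It was found in 119 cells of set 2 (3.39%) and 114 of set 1 (7.95%), and after thinning in 3.30% and 3.72%. The highest 1% of cells held 70.0% of its UMIs in set 2 and 39.0% in set 1, with up to 17 UMIs in a single cell of each set. For Il18r1 the same share was 9.72% in set 2 and 7.11% in set 1, but this share also rises as a gene gets scarcer. Il1rap, with at most 2 UMIs in any cell, reached 61.0% and 29.3%. Cells positive for Il1rl1 held a mean of 3.05 of its UMIs in set 2 and 2.79 in set 1. The same mean was 2.09 and 2.33 for Il18r1, and 1.02 and 1.05 for Il1rap.

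The Il1rl1 ratio was not the same in all cells. Cells with Xist UMIs and no UMI of a Y-linked gene had 16.5 CPM of Il1rl1 in set 2 (1428 cells) and 8.26 CPM in set 1 (523 cells), a ratio of 1.996. Cells with Y-linked UMIs and no Xist had 25.4 CPM in set 2 (1186 cells), against 26.9 CPM in set 1 (661 cells), a ratio of 0.946. This split was made after the data were seen, and Il17rb kept its direction in it, with ratios of 4.19 and 3.54. The intervals do not allow for Il1rl1 UMIs being concentrated in few cells, so no difference between these groups of cells is read.

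**Figure D1:**
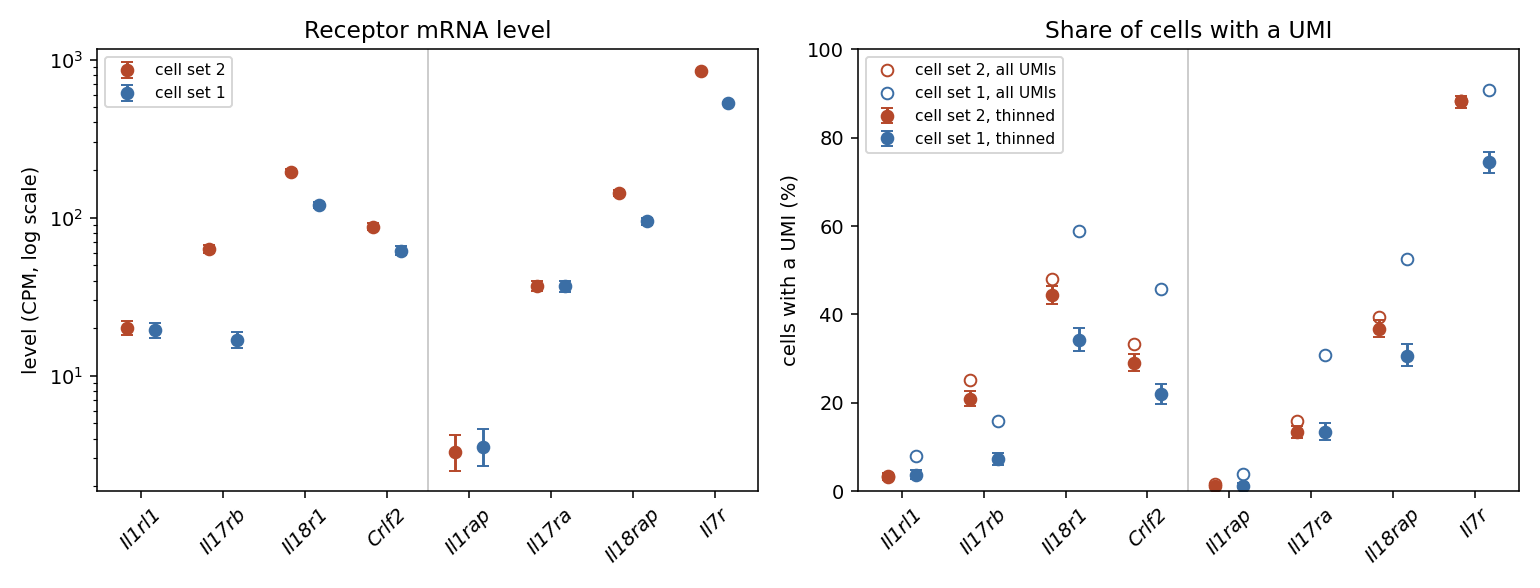
Level (left, CPM on a log scale) and share of cells with a UMI (right, percent) of the 4 ligand-binding chains and, right of the grey line, their partner chains, with set 2 in red and set 1 in blue. Bars are 95% intervals of counting error, and open circles give shares with all UMIs. Il17rb shows the widest gap, 63.7 and 16.8 CPM, and Il1rl1 next to none.

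The partner chains did not all follow the chains they pair with. Il18rap stood at 143 CPM in set 2, against 95.1 CPM in set 1, a ratio of 1.503 close to that of Il18r1. Il7r, the partner of Crlf2 and a marker of ILCs in general, stood at 851 CPM in set 2, against 531 CPM in set 1, a ratio of 1.60. Il17ra, shared by several IL-17 family receptors, stood at 37.0 CPM in set 2, against 36.7 CPM in set 1 (ratio 1.01, 0.90 to 1.13), although its partner Il17rb differed 3.79-fold. Il1rap, the partner of ST2 that also serves the IL-1 and IL-36 receptors, was scarce, with 59 UMIs in set 2 (3.27 CPM) and 58 in set 1 (3.54 CPM), and its ratio of 0.92 (0.63 to 1.35) is not resolved at this depth.

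Clusters were made without the 7 genes, Il7r, Il5 and Il13, so the receptor levels did not shape them. In set 2, Il1rl1 RNA sat mostly in cluster 8. These 87 cells, 2.48% of the set, held 260 of its 363 Il1rl1 UMIs (71.6%) at 518 CPM (457 to 585), with a UMI in 56.3% of them. Outside cluster 8, set 2 had 5.88 CPM of Il1rl1. Cluster 8 had no cell of set 1, and without it the Il1rl1 ratio of set 2 to set 1 was 0.303, an alternative chosen after the data were seen. Leaving it out takes Il1rl1-rich cells from set 2 alone, while those of set 1 stay in. A lower ratio was therefore bound to follow, and no difference between the sets is read from it.

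Cluster 8 was led by Klrg1, Csf2 and Lgals3 among the genes used to form it, and 6 of the 11 ILC2 markers were raised in it (Gata3, Areg, Il5, Il13, Klrg1 and Arg1). Klrg1 encodes an inhibitory receptor carried by activated ILC2s, and Csf2 the growth factor GM-CSF. Of 7 mast cell markers Kit and Hdc were raised there. The cluster also had the highest Il5 level, 2134 CPM, and Il18rap at 330 CPM, but Il17rb at only 13.9 CPM, from 7 UMIs, against 65.1 CPM in the rest of set 2. At each other clustering tried, the set 2 cluster with the most Il1rl1 was picked, and it had 74 to 89 cells and 494 to 581 CPM of Il1rl1. Its cells were shared with cluster 8 in 74 of 74 cases at resolution 0.3 and 84 of 89 at resolution 1.0. With each set clustered by itself, 64 of 75 were shared.

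In set 1, most Il1rl1 UMIs fell in a large cluster, but in few of its cells. Cluster 0 held 682 cells or 47.6% of set 1 and was led by Slc38a4, Igsf5 and Calca. It held 70.8% of the set's Il1rl1 UMIs at 29.7 CPM (25.9 to 33.8), from 75 of its cells. Cells with at least 3 Il1rl1 UMIs numbered 44 in set 2 and 41 in set 1. The other clusterings were searched for the set 2 cluster alone. Whether set 1 also has a smaller Il1rl1-rich group was not tested, so no contrast in group size is read. Cycling cells, cluster 3 with 340 cells of set 1, had 14.7 CPM. Cluster 4, in which 7 of 12 ILC3 markers were raised, had 0.604 CPM (0.015 to 3.36), from 1 cell of 197 (0.508%) at a median of 8020 UMIs. In set 2, cluster 2 had 1.24 CPM (0.40 to 2.89), from 5 of 899 cells (0.556%) at a median of 4308 UMIs. Cluster 5 had Il1rl1 in 2.88% of 1560 cells at 7.10 CPM. The part of free RNA in these low levels was not tested.

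Il17rb was spread differently. Among clusters with over 100 cells its highest level was in cluster 1, led by Dusp2, Fos and heat-shock genes, at 110 CPM in 656 cells of set 2 and 38.3 CPM in 211 cells of set 1. Set 2 had more Il17rb than set 1 within the same cluster also in cycling cluster 3, 35.0 CPM against 18.1 CPM. In the clusters found nearly always in set 2 it stood at 62.4 CPM (cluster 2) and 57.4 CPM (cluster 5). In set 1, cluster 0 had 12.5 CPM, close to the 12.1 CPM of cluster 4, where 8.63% of cells had a UMI.

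Il18r1 was found in every cluster. Among clusters with at least 40 cells of set 1 it was highest in cluster 4, at 224 CPM with a UMI in 77.2% of cells, and stood at 105 CPM in cluster 0 and 98.3 CPM in cluster 3. In set 2 it stood at 228 CPM in cluster 5, 189 CPM in cluster 1, 179 CPM in cluster 8 and 106 CPM in cluster 2. The 85 cells of cluster 7 reached 1364 CPM of Il18r1 and 631 CPM of Il18rap, at a median of 1148 UMIs and with Malat1 at 125671 CPM, and the part of this make-up in their receptor levels was not tested. Crlf2 was the most even of the 4, from 57.4 to 66.3 CPM over clusters 0, 1, 3 and 4 of set 1 and from 72.4 to 104 CPM over clusters 1 to 6 and 8 of set 2, with 37.1 CPM from 4 UMIs in cluster 7.

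**Figure D2:**
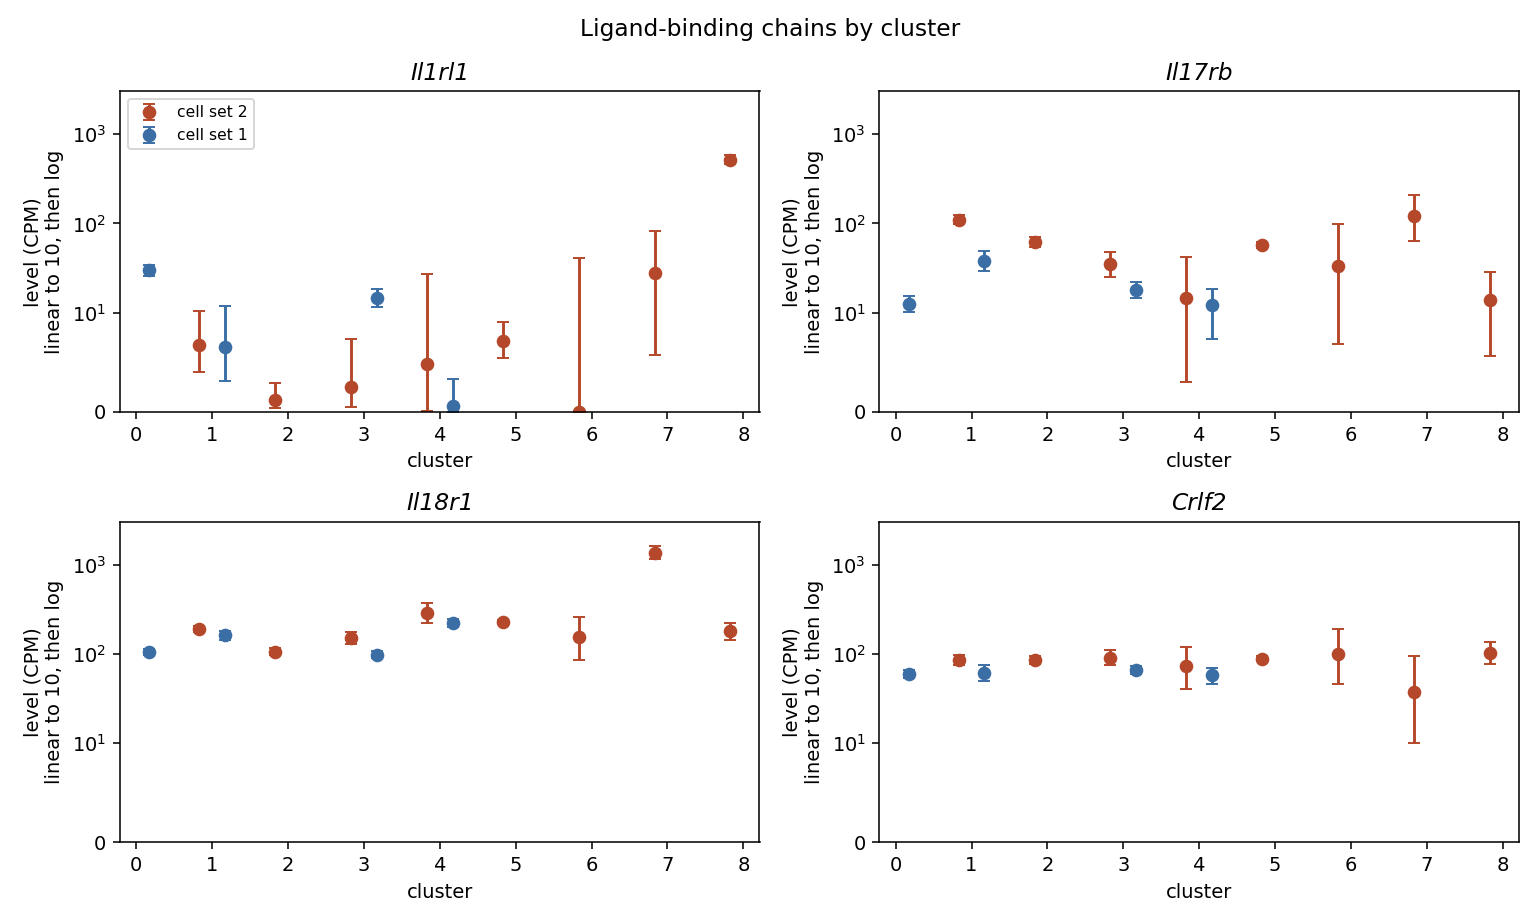
Level (CPM, linear to 10 and logarithmic above) of the 4 ligand-binding chains in each cluster with at least 40 cells of a set, set 2 in red and set 1 in blue, with 95% intervals of counting error. Il1rl1 peaks in cluster 8 at 518 CPM, where Il17rb is at 13.9 CPM, while Crlf2 lies between 57.4 and 104 CPM outside cluster 7, where it is at 37.1 CPM.

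Most cells showed RNA of at least 1 binding chain. None of the 4 was found in 26.9% of set 2 cells and 19.7% of set 1 cells, exactly 1 in 42.5% and 40.2%, 2 in 24.6% and 32.4%, and 3 in 5.84% and 7.32%. All 4 were found in 6 cells of each set. At 4106 UMIs per cell the order turned, with none in 30.5% of set 2 and 46.0% of set 1, 2 chains in 20.4% and 11.5%, and 3 in 3.81% and 0.802%. The commonest pattern among cells with a chain was Il18r1 alone, in 743 cells of set 2 (21.2%) and 337 cells of set 1 (23.5%). Crlf2 alone was found in 429 cells of set 2 and 177 cells of set 1, and Il18r1 with Crlf2 in 403 and 306 cells.

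**Figure D3:**
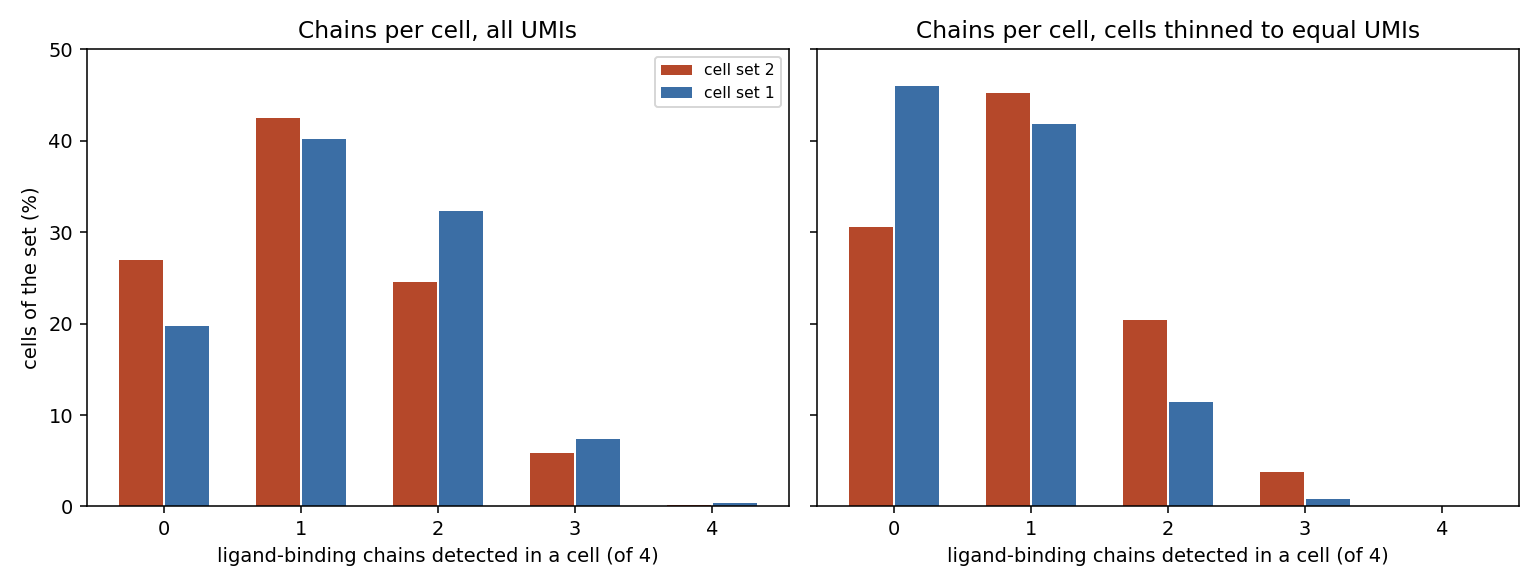
Cells of each set (percent) by how many of the 4 ligand-binding chains had a UMI, with all UMIs (left) and after thinning to 4106 UMIs per cell (right), set 2 in red and set 1 in blue. After thinning 46.0% of set 1 cells show none, against 30.5% of set 2 cells.

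Both RNAs of a complete receptor were seen together to very different degrees. In thinned cells Il18r1 and Il18rap were both found in 18.2% of set 2 and 11.7% of set 1, Crlf2 and Il7r in 25.3% and 16.05%, and Il17rb and Il17ra in 3.77% and 0.729%. Il1rl1 and Il1rap shared 4 cells of set 2 and 5 of set 1 with all UMIs. From depth and the number of cells with each RNA, 2.26 and 5.12 cells were expected. All these values also depend on how common each RNA was. These are shares of cells in which both RNAs were detected. At this depth a cell without a UMI may still hold the RNA, and a UMI may also come from free RNA, which was not removed.

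To ask which receptor genes were found in the same cells beyond what depth gives, detection was compared within 10 strata of total UMIs and expressed as an odds ratio, where 1 means that both genes were detected independently. Il1rl1 and Il17rb were found together less than that. In set 2 they shared 15 cells, against 31.8 from depth (odds ratio 0.380), and in set 1 they shared 11 cells, against 20.5 (odds ratio 0.453). Among all genes with a UMI in at least 2% of cells, 0.246% in set 2 and 1.49% in set 1 had an odds ratio with Il17rb of 0.5 or less, and Il1rl1 was 3rd from the bottom of 8529 genes in set 2 and 93rd of 9999 in set 1. Il17rb RNA was thus found in 12.6% of Il1rl1-positive and 25.6% of Il1rl1-negative cells of set 2, and in 9.65% and 16.4% of those of set 1.

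Within clusters the overlap of Il1rl1 and Il17rb was not settled by the counting intervals, which are wide for shared cells. In cluster 0 of set 1, 4 cells had both (counting interval 1.09 to 10.2), against 9.71 from depth, with an odds ratio of 0.349. In cluster 5 of set 2, 8 cells had both (3.45 to 15.8), against 11.7 (odds ratio 0.605). In cluster 8, which held most Il1rl1 UMIs of set 2, the count was 4, against 3.41 from depth, and the odds ratio pointed the other way, at 1.59. Of the other pairs of binding chains, Il17rb and Il18r1 had odds ratios of 1.26 in set 2 and 1.36 in set 1, Il1rl1 and Crlf2 of 1.25 and 1.45, Il18r1 and Crlf2 of 1.03 and 1.21, and Il17rb and Crlf2 of 0.824 and 0.990. For the neighbours Il1rl1 and Il18r1 the odds ratio was 1.38 in set 2 and 0.638 in set 1. They shared 70 cells of set 2, against 61.6 from depth, and 59 cells of set 1, against 70.2. Both counts from depth lay within the counting error of the shared cells. That error is wider than the spread at fixed numbers of positive cells, so it cannot settle either direction. Neither direction was tested, and none is read.

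Il1rl1 was found more with Il18rap, the third of these neighbours and the IL-18 receptor's partner chain, than with Il18r1. Il1rl1-positive cells had an Il18rap UMI in 68.1% of set 2 and 72.8% of set 1, against 38.5% and 50.8% of Il1rl1-negative cells, with odds ratios of 3.104 and 2.16. In cluster 0 of set 1, 55 cells had both (counting interval 41.4 to 71.6), against 42.1 from depth. In cluster 8 the count was 41 (29.4 to 55.6), against 35.6. In cluster 5 of set 2 it was 29 (19.4 to 41.6), against 23.5. The part of the clusters in this overlap was not tested. An odds ratio of at least 2 with Il1rl1 was reached by 4.79% of genes in set 2 and 3.05% in set 1. Il18r1 and Il18rap, the 2 chains of a single receptor, had odds ratios of 1.59 and 1.49, and Il17rb and Il17ra 1.29 and 1.13. Crlf2 and Il7r stood at 0.852 and 0.656, with Il7r found in 88.3% of set 2 cells and 90.9% of set 1 cells, so that few cells lacked it.

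**Figure D4:**
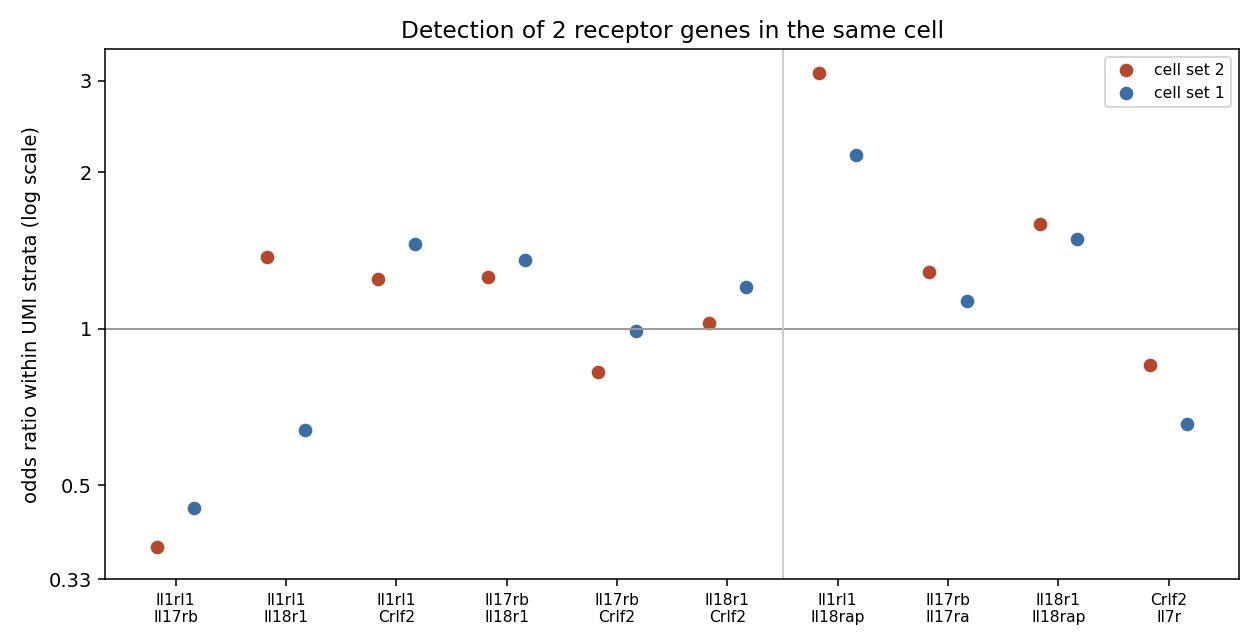
Odds ratio (log scale) of finding 2 receptor genes in the same cell, within 10 strata of total UMIs, for pairs of binding chains (left of the grey line) and pairs that involve a partner chain (right), set 2 in red and set 1 in blue. Il1rl1 with Il17rb lies lowest, at 0.380 and 0.453, and Il1rl1 with Il18rap highest, at 3.104 and 2.16.

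Of the 4 binding chains, Il1rl1 was the one tied to Il5 in both cell sets. Il5 RNA was found in 63.9% of the 119 Il1rl1-positive cells of set 2 (54.6 to 72.5%) and in 23.7% of its Il1rl1-negative cells. In set 1 it was found in 65.8% of the 114 positive cells and in 22.4% of the negative ones. The odds ratios were 4.78 and 5.44, which ranked Il1rl1 3rd of 8526 genes in set 2 and 2nd of 10015 genes in set 1. An odds ratio of at least 2 with Il5 was reached by 1.62% of genes in set 2 and 1.16% in set 1.

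Il13 was tied to Il1rl1 less closely, with odds ratios of 2.13 in set 2 and 2.18 in set 1; 0.727% and 1.17% of genes were at 2 or more. Il13 was in 64.7% of Il1rl1-positive and 43.3% of Il1rl1-negative cells of set 2, and in 67.5% and 45.1% of those of set 1. Either cytokine was found in 83.2% of Il1rl1-positive and 53.9% of Il1rl1-negative cells of set 2, and in 83.3% and 52.7% of those of set 1. Without cluster 8, the odds ratio of Il1rl1 with either cytokine in set 2 was 2.01, against 3.71 with it.

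The other binding chains showed no such tie. Il17rb had odds ratios with Il5 of 0.622 in set 2 and 0.885 in set 1, and with Il13 of 0.966 and 1.15. Il5 RNA was in 21.4% of Il17rb-positive and 26.3% of Il17rb-negative cells of set 2. Crlf2 had odds ratios with Il5 of 1.32 and 1.05 and with Il13 of 1.22 and 0.879. Il18r1 had odds ratios with Il5 of 1.21 in set 2 (496 cells with both, against 468 from depth) and 0.679 in set 1 (204 cells, against 228). Both counts from depth lay within the counting error of the shared cells, which is wider than the spread at fixed numbers of positive cells. A difference in direction was not tested and is not read. With Il13, Il18r1 was below 1 in both sets, at 0.869 and 0.685. Its partner Il18rap was above 1 throughout, at 2.02 and 1.43 for Il5 and at 1.42 and 1.28 for Il13. The middle 90% of all genes ran from 0.601 to 1.55 for Il5 in set 2 and from 0.560 to 1.504 in set 1, so Il1rl1 in both sets and Il18rap in set 2 lay outside it.

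**Figure D5:**
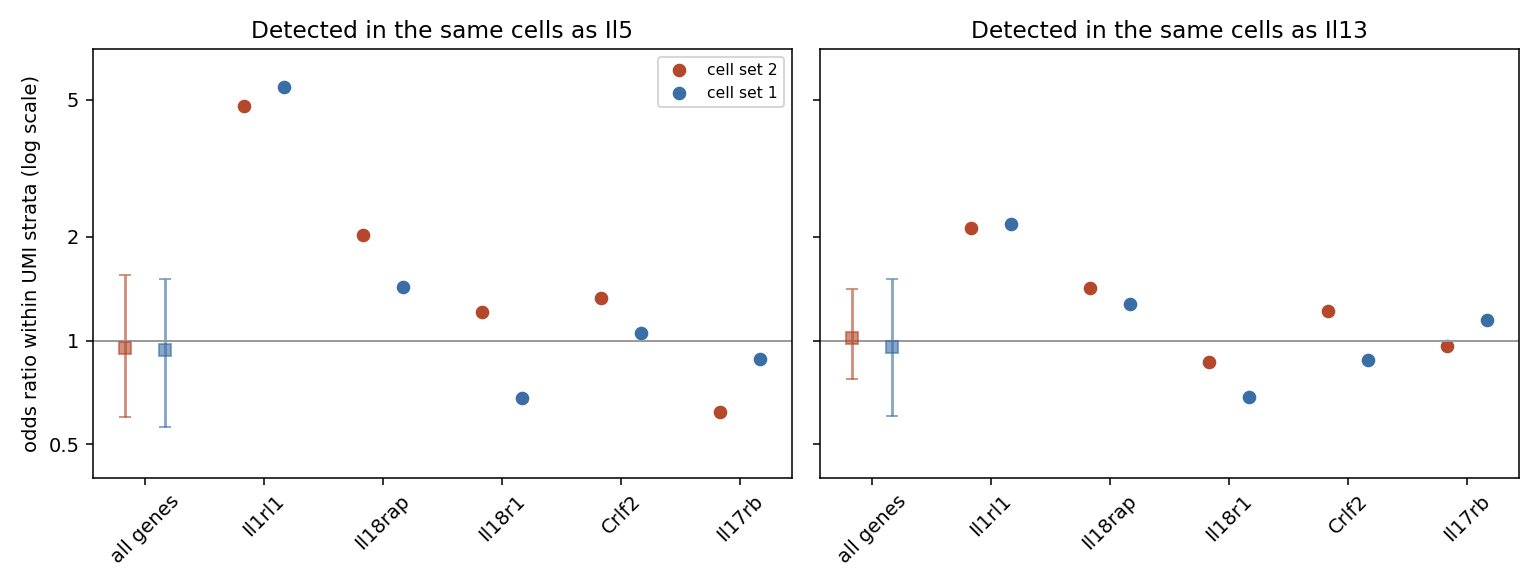
Odds ratio (log scale) of finding each receptor gene in the same cell as Il5 (left) or Il13 (right), within 10 strata of total UMIs, set 2 in red and set 1 in blue. Squares give the median of all genes and their bars the 5th to 95th percentile. Il1rl1 lies at 4.78 and 5.44 for Il5, above the 95th percentile of all genes.

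The tie of Il1rl1 to Il5 was clear within cluster 0 of set 1, where 57 of 75 Il1rl1-positive cells had Il5 (76.0%; counting interval of the 57 cells 43.2 to 73.9), against 28.1 from depth, and 30.1% of the negative cells did (odds ratio 7.01). In the other clusters the count expected from depth lay at the edge of the counting interval or inside it. That interval is wider than the spread at fixed numbers of positive cells, so no lack of a tie is read from it. In cycling cluster 3 of set 1 the odds ratio was 2.85, with 18 cells (10.7 to 28.4), against 10.8 from depth. In set 2 it was 3.46 in cluster 8, where 93.9% of positive and 81.6% of negative cells had Il5, and 1.98 in cluster 5, with 24 cells (15.4 to 35.7), against 16.8.

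Of the 11 ILC2 markers, 8 were higher in Il1rl1-positive than in Il1rl1-negative cells of set 2 and 9 in those of set 1, Il5 and Il13 among them. The share of all genes higher in positive cells was not counted, so nothing particular to the ILC2 markers is read from these counts. Gata3, the transcription factor on which ILC2s depend, stood at 1323 CPM in positive and 562 CPM in negative cells of set 2, and at 893 and 544 CPM in those of set 1. Klrg1 stood at 113 and 1.62 CPM in set 2 and at 23.1 and 3.31 CPM in set 1. Csf2 stood at 637 and 86.4 CPM in set 2 and at 153 and 48.3 CPM in set 1, and Areg, which encodes the repair factor amphiregulin, at 2014 and 948 CPM and at 1051 and 597 CPM. Ptgdr2, the receptor CRTH2 for prostaglandin D2, was lower in positive cells of both sets, at 1.38 and 3.06 CPM in set 2 and at 0.641 and 5.80 CPM in set 1, and so was Bcl11b, a transcription factor of ILC2s and T cells, at 131 and 187 CPM and at 102 and 117 CPM. The costimulatory receptor gene Icos was lower in set 2 alone, at 1404 and 1525 CPM, against 1338 and 946 CPM in set 1. Il4 ran the other way in set 1, at 37.8 CPM in positive and 78.1 CPM in negative cells, and Thy1, a gate marker, was lower in positive cells of both sets, at 282 and 502 CPM in set 2 and at 115 and 221 CPM in set 1.

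ST2 is also carried by mast cells, basophils and eosinophils, so their markers were looked for in the same cells. The 7 mast cell markers summed to 383 CPM in Il1rl1-positive and 157 CPM in Il1rl1-negative cells of set 2, where 5 of the 7 were at 0 in the positive cells, and to 321 and 165 CPM in set 1, with 1 at 0. Fcer1a, a chain of the IgE receptor that defines mast cells and basophils, was at 0 in both whole sets. In whole set 2, Cma1 and Tpsb2 were also at 0, Cpa3 had 3 UMIs and Mcpt4 had 5, so zeros in its positive cells say little. Kit, which ILC2s also carry, made up 336 CPM of the sum in Il1rl1-positive and 152 CPM in Il1rl1-negative cells of set 2, and 215 and 103 CPM in those of set 1. Hdc, which encodes the enzyme that makes histamine, was also higher in positive cells, at 46.8 and 4.39 CPM in set 2 and at 66.1 and 9.98 CPM in set 1. The mast cell protease genes Cma1 (16.7 and 23.5 CPM), Mcpt4 (7.05 and 13.6 CPM) and Tpsb2 (3.85 and 4.86 CPM) were lower in positive than in negative cells of set 1, and Cpa3 was at 11.5 and 10.5 CPM. All 4 basophil markers were at 0 in positive cells of set 2 and 3 of 4 in those of set 1. These markers were nearly absent from the whole sets, with 1 UMI of Cd200r3 and none of Mcpt8 or Prss34 in set 2. Set 1 had 9 UMIs of Cd200r3, 2 of Mcpt8 and 0 of Prss34, so the zeros cannot set positive cells apart from negative ones. Of the 2 eosinophil markers in the table, Siglecf was at 0 in both sets, and Ccr3 had 3 UMIs in positive cells of set 2 (4.13 CPM) and 2 UMIs in negative ones (0.116 CPM), against 0 and 1 UMI in those of set 1. Regulatory T cells carry ST2 as well, and their 4 markers summed to 452 CPM in positive and 331 CPM in negative cells of set 2, and to 189 and 142 CPM in set 1. Over whole sets most of the sum came from Ikzf2 (215 CPM in set 2, 117 in set 1) and Tnfrsf4 (116 and 24.3 CPM). Foxp3, the factor that defines these cells, had 2 UMIs in the whole of set 2 and 11 in set 1. The alpha beta T cell markers summed to 1034 and 934 CPM in set 2 and to 581 and 804 CPM in set 1. The part of such cells in the Il1rl1 values was not tested.

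Il17rb-positive cells looked different. They had 122 CPM of Il5 against 287 CPM in Il17rb-negative cells of set 2, and 71.6 against 161 CPM in set 1. Il1rl1 stood at 7.75 CPM in Il17rb-positive and 24.9 CPM in Il17rb-negative cells of set 2, and at 7.80 and 22.0 CPM in those of set 1. Il13 did not follow, at 366 and 361 CPM in set 2 and at 243 CPM in both groups of set 1. Thy1 was higher in Il17rb-positive cells, at 547 and 473 CPM in set 2 and at 266 and 199 CPM in set 1.

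Genes around the receptors were described from lists, all by the same ratio of set 2 to set 1. Among 5 other chains of the receptor families with at least 100 UMIs, 4 were higher in set 2 and 1 lower, with a median log2 ratio of 0.68. Il1r2, a decoy receptor that binds IL-1 without signalling, was at 17.8 CPM in set 2, against 1.59 CPM in set 1 (11.2-fold), and in set 2 266 of its 320 UMIs lay in 44 cells of cluster 5. Il1r1, the signalling IL-1 receptor, was at 1.66 CPM in set 2, against 5.92 CPM in set 1 (ratio 0.28), and Il17re, a receptor chain for IL-17C, at 6.44 and 3.11 CPM (ratio 2.07). None of the ligand genes found in the table had 100 UMIs, and Il33 had 9 UMIs in set 2 and 8 in set 1.

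These and the following counts stand beside the 39.1% of all genes that were higher in set 2, the 6.24% at least 2-fold higher and the 8.85% at least 2-fold lower. Of 16 adaptors and kinases, 7 were higher and 9 lower in set 2, with 2 at least 2-fold higher and 1 at least 2-fold lower. The last was Tab1, which encodes a binding protein of the kinase TAK1, at 1.94 CPM in set 2, against 5.43 CPM in set 1. Irak3, an inhibitor of this pathway best known from macrophages, was at 8.10 CPM in set 2, against 2.50 CPM in set 1 (3.24-fold), while the common adaptor Myd88 was at 10.7 and 18.1 CPM (ratio 0.59). On the TSLP side, Stat5a was at 53.7 CPM in set 2, against 19.3 CPM in set 1 (2.78-fold), and Jak2 at 248 and 150 CPM (1.66-fold). Of 10 NF-kB genes 9 were higher in set 2, none by 2-fold, from Nfkb1 at 606 and 366 CPM to Chuk at 39.9 and 35.8 CPM, and Rela alone was lower, at 54.9 and 79.7 CPM.

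Of 7 cytokine and effector genes with enough UMIs 5 were higher in set 2 and 2 lower. Il5 was at 241 CPM in set 2, against 145 CPM in set 1 (1.66-fold) and Il13 at 362 and 243 CPM (1.49-fold), whereas Il4 was at 29.7 and 74.3 CPM (ratio 0.40) and Calca, the CGRP peptide gene, at 155 and 616 CPM (ratio 0.25). Il2, a lymphocyte growth factor gene, was at 73.2 and 33.8 CPM (2.17-fold). Among 8 other activating receptors of ILC2s, 5 were higher and 3 lower in set 2. Il9r, the receptor chain for the ILC2 survival factor IL-9, was at 62.7 and 21.9 CPM (2.86-fold), and Cysltr1, a leukotriene receptor, at 53.3 and 136 CPM (ratio 0.39).

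The genes whose log-scaled levels followed each receptor most closely over single cells of a set were ranked by Pearson's r, as a description. All cells of a set share a library, and most values are 0 to a few UMIs. For Il1rl1 the leading gene was Il5 in both sets, with r of 0.29 over 3508 cells of set 2 and 0.44 over 1434 cells of set 1. Rab27b, which encodes a secretory vesicle protein, was among the 5 leading genes in both, at 0.27 and 0.30. In set 2 Ccdc184, Csf2 and Lgals3 stood between them, and in set 1 Gfpt1 and Hs3st1.

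For Il18rap the leading gene was Kit in set 2 (r of 0.28), followed by Jak2, and Il2ra in set 1 (0.21), also followed by Jak2. For Il18r1 it was Nabp1 in set 2 (0.21), with Malat1 and Il18rap among the leading 5, and the chemokine receptor gene Ccr2 in set 1 (0.26), with Fcer1g and Tcf7 among the leading 5. Il17rb, Crlf2, Il1rap and Il17ra reached r of at most 0.17 with any gene, too low in counts this sparse to be read as a relation. The leading genes of Il17rb were Itgae, an integrin chain of epithelium-associated lymphocytes, in set 2 (0.14) and Thy1 in set 1 (0.15).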

How the data were processed

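The labels describe 1 library of skin ILCs per day (P14, P1). Per the submitters' processing notes, the authors used Cell Ranger 3.1.0 and Seurat 4.1.0 with mm10, at settings not given in the sources used here. Deposited by the authors were whole UMI counts for each gene symbol and cell, neither scaled nor normalised. A cell needed 200 genes and no more than 10% of its UMIs from mitochondrial genes, and 267 cells in set 2 and 30 in set 1 failed this. Scrublet, within scanpy 1.11.5, called 0 doublets in set 2 and 7 in set 1, too few to show that it worked, and these were removed. Counts scaled to 10000 per cell, 2000 variable genes without the 7 receptors, Il7r, Il5 and Il13, 30 principal components, 15 neighbours and Leiden resolution 0.5 gave the clusters. A marker was raised at 20 CPM, 2-fold over other cells and in 10% of cells.

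UMIs were summed per set, to 18026148 in set 2 and 16383657 in set 1, and given as CPM with exact Poisson 95% intervals. Ratios carry exact binomial intervals and shares exact Clopper-Pearson intervals. A count of 0 allows up to 3 UMIs, which is 0.166 CPM in set 2 and 0.183 CPM in set 1. Odds ratios are Mantel-Haenszel estimates over 10 strata of total UMIs and are printed with no interval. Scripts were tested on simulated data. TMM factors (edgeR 4.0.16) and DESeq2 1.42.0 size factors served only as other scalings. The receptors, lists and markers were chosen with earlier results of these data known. Genes named from lists were up to 4 per list with the largest ratios of CPM + 10 between the sets, beside members, markers and the genes most like a binding chain over cells. Myd88, Tab1, Chuk, Il33 and the genes most like Il18rap were chosen after their values were seen.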

Additional observations from a re-analysis of the deposited data

How the results depend on the processing

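No paired analysis was possible because there is 1 library per day and no result comes from a test. A value was taken as unchanged where it stayed inside the counting interval of the value in the report (for odds ratios, the value scaled by the exact binomial interval of the shared cell count), and 81 of 98 level ratios, 62 of 76 share ratios and 80 of 96 odds ratios with Il5 or Il13 did. The background of genes at least 2-fold apart grew to 6083 with no minimum above 1 UMI and fell to 684 with at least 500 UMIs, against 1431. The set 2 cluster with the most Il1rl1, picked anew each time, kept its level under all 3 other clusterings. The cause of the shifts below was not tested.

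Among level ratios of set 2 to set 1, TMM and DESeq2 scaling, which moved all genes by -0.15 and -0.14 in log2 library size, gave 1.81 and 1.79 for Il18r1, 1.58 and 1.56 for Crlf2 and 1.67 and 1.65 for Il18rap. Thinned cells gave 1.47 for Il18r1, 3.17 for Il17rb and 1.39 for Il18rap, CPM + 10 gave 2.75 for Il17rb, and leaving out the cycling cluster gave 1.51 for Il18r1. Without cluster 8, Il1rl1 had a level ratio of 0.303, a share ratio of 0.462 and, in set 2, an odds ratio with Il5 or Il13 of 2.01. Cluster 8 had cells of set 2 alone, so both ratios between the sets were bound to fall.

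Without thinning, the share ratios were 0.427 for Il1rl1, 1.59 for Il17rb, 0.431 for Il1rap and 0.514 for Il17ra, and those of Il18r1 (0.814), Crlf2 (0.727) and Il18rap (0.752) reversed. With thinning, counting cells with at least 2 UMIs gave 1.52 for Il18r1, 5.58 for Il17rb, 1.74 for Il18rap and 1.53 for Il17ra.

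Odds ratios with Il5 or Il13 at 2 or more receptor UMIs were 11.3 in set 2 and 6.59 in set 1 for Il1rl1, and in set 1 0.559 for Il18r1 and 0.829 for Crlf2. Leaving out the cycling cluster gave 5.04 for Il1rl1 in set 1. Without depth strata, Il17rb reversed in set 2 (1.04), Il18r1 was at 1.25 in set 2 and 0.740 in set 1, and Crlf2 at 1.75 and 1.25. Thinned cells without strata gave 1.14 for Il18r1 and 1.21 for Crlf2 in set 2. Among pairs, lack of strata also reversed Crlf2 with Il7r (1.26 in set 2, 1.05 in set 1), Il18r1 with Il13 in set 2 (1.06) and Crlf2 with Il13 in set 1 (1.12, and 1.10 in thinned cells), and 2 UMIs of both genes reversed Il18r1 with Crlf2 in set 1 (0.992).

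Alternatives added after the data were seen were Scrublet calls kept in, cluster 8 left out, clusters 6 and 7 left out, and cells split by Xist and Y-linked UMIs. In Xist-only cells the level ratios were 1.996 for Il1rl1, 1.75 for Il18rap and 1.46 for Il1rap, the Crlf2 share ratio was 1.63, and odds ratios with Il5 or Il13 were 1.49 for Crlf2 in set 2 and 5.16 for Il1rl1 in set 1. Crlf2 with Il7r in set 2 (1.05) and Crlf2 with Il13 in set 1 (1.06) reversed there. In Y-only cells the level ratios were 1.84 for Il18r1 and 0.574 for Il1rap, the Crlf2 share ratio 1.10 and its odds ratio with Il5 or Il13 in set 2 1.19.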
